A study of Mus musculus with 4 samples.

Results

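Endothelial cells line blood and lymphatic vessels, and 34 genes that mark them were followed in endometriotic lesions, in which tissue like the lining of the uterus grows at other sites. The genes were a list of names, with no measured value in the rule. The list was nevertheless chosen with earlier results of these data known. Of its genes 30 mark blood vessel endothelium or endothelium in general, and 4 (Prox1, Pdpn, Flt4 and Mmrn1) mark lymphatic endothelium. All 34 had a probe set assigned to that gene symbol alone, out of 18193 genes on the array, and 32 passed the filter on low values (mean log2 intensity at or above the 40th percentile of probe sets, an intensity of 33.9), out of 12797 tested. Lesion RNA from mice given a high-fat diet was hybridised to 2 Affymetrix arrays, and lesion RNA from mice given a casein diet, labelled as the control, to 2 others. The series title describes the animals as immunocompetent. The sources used here do not give strain, age, the time on each diet or the way lesions were produced, nor the number of animals or lesions behind an array. The p-values below set each diet difference against the spread between arrays of the same diet, which limma moderates over all tested genes. Whether that spread is one between animals is therefore unknown. Values are linear probe set intensities, and each pair of values gives replicate 1 and then replicate 2 of a diet.

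New vessels form when vascular endothelial growth factors bind the receptors Flt1, Kdr and Flt4 on endothelial cells, and angiopoietins acting through Tek, with its relative Tie1, stabilise or loosen the vessel wall. Endothelial cells are joined by the cadherin Cdh5, and their identity is kept by transcription factors such as Erg of the ETS family and the related Sox7, Sox17 and Sox18. Endometriotic lesions need a blood supply from the host tissue in which they implant, and their vessels have been studied for that reason.

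The upstream sequence of 5 members is shown, to give windows with few and with many matches to one motif: those of the related receptors Tek and Tie1, the lymphatic receptor Flt4, and the surface glycoprotein genes Emcn and Clec14a. Each line gives the 250 bases before an annotated start in RefSeq (GRCm38.p6), 5′ to 3′ on the gene's strand. The windows lie at chr4:94739039-94739288 (+ strand), chr4:118489850-118490099 (- strand), chr11:49609429-49609678 (+ strand), chr3:137340828-137341077 (+ strand) and chr12:58269259-58269508 (- strand), each outside the annotated span of its own gene. Capitals mark GGAAG or its reverse complement CTTCC, a core of sites bound by ETS factors.
Tek: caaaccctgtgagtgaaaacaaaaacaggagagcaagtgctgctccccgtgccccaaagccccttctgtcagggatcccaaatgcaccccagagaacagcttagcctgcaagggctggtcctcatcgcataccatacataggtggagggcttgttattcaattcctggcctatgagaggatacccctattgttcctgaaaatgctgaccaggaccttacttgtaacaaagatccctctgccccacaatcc
Tie1: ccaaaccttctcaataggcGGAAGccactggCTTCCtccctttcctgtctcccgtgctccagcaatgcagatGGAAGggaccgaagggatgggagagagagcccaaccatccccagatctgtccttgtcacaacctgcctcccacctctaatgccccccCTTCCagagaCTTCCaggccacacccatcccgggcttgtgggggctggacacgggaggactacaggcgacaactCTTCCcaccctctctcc
Flt4: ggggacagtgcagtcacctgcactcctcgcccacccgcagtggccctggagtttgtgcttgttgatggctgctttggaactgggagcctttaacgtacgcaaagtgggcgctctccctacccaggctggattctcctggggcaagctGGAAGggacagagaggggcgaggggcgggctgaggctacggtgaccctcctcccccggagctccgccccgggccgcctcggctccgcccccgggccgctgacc
Emcn: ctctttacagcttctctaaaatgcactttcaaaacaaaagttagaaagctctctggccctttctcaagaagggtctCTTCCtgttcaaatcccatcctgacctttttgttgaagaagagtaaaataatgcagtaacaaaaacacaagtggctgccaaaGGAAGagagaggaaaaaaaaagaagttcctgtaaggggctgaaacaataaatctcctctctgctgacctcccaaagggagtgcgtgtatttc
Clec14a: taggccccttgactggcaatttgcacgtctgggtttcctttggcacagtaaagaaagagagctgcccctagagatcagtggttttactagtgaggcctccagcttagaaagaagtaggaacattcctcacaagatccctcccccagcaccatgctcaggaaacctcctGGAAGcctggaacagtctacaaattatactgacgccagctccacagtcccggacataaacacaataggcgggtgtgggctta

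The Tie1 window held 6 such matches and the Tek window 0. Emcn had 2, Clec14a 1 and Flt4 1. Promoter windows were found for 19 of the 34 members (25 windows), and 20 of the 25 windows, or 80%, held GGAAG on either strand, against 64.1% of 32817 windows of the same length. The SOX core ACAAT (reverse complement ATTGT) was in 36% of member windows and 27.7% of all windows, and the GATA core GATAA (reverse complement TTATC) in 16% and 22.6%. None of the 3 motifs contains another, though neighbouring matches can share end letters. The median GC content was 56% in member windows and 52.4% in all. A match is a description of the letters only.

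Of the 32 members tested, 31 had a larger mean on the high-fat diet and 1, Sox7, a smaller one. The median log2 difference, high-fat diet minus casein diet, was 0.36, against -0.0051 over all tested genes, of which 48.6% lay above 0. After Benjamini-Hochberg adjustment over all genes, limma's test called 0 of the 32 members (adjusted p from 0.857 to 0.978) and 0% of the 12797 genes. At an unadjusted p under 0.05 limma gave 8 members higher, or 25%, where 2.24% of all genes were, and 1 lower, where 2.73% were. Both high-fat diet arrays lay above both casein diet arrays for 23 members, or 71.9%, against 16.6% of all genes, and both lay below for 1, against 19.3%. In 9 members the difference was at least 0.5 on the log2 scale, or 28.1%, against 4.22% of all genes. These shares are descriptions only, because the list was chosen with earlier results of these data known. Lesion RNA cannot tell more endothelial cells from more RNA per cell.

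**Figure D1:**
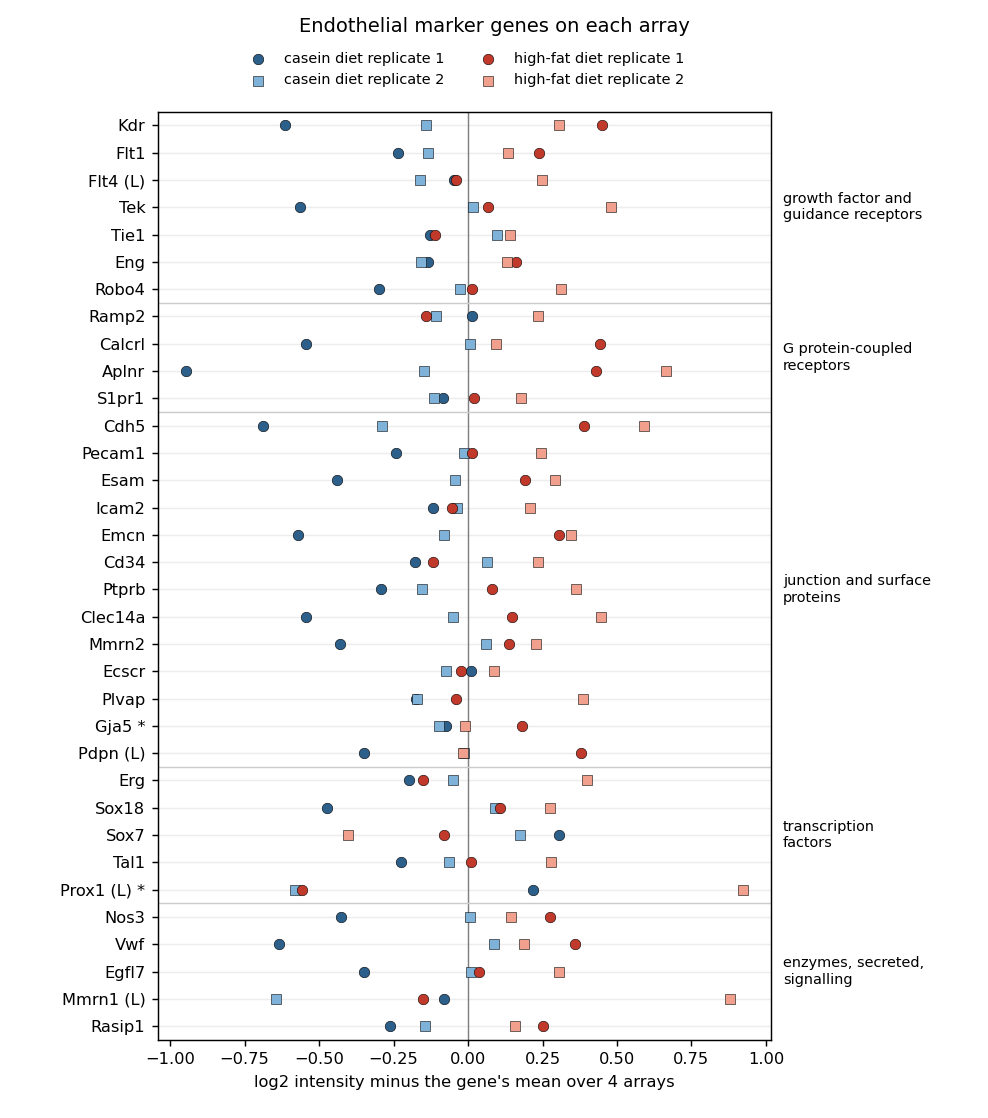
The plot shows the log2 intensity of each of the 34 genes on each of the 4 arrays, as the deviation from that gene's mean (x axis), with genes in rows by role; L marks lymphatic genes and an asterisk the 2 genes below the filter. Casein diet replicate 1 is the lowest array for 25 of the 32 tested genes and high-fat diet replicate 2 the highest for 23.

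The arrays of one diet differed too. Casein diet replicate 1 was the lowest of the 4 arrays for 25 of 32 members, against 34.6% of all tested genes, and high-fat diet replicate 2 was the highest for 23, against 23.1%. The median member was 0.23 higher (log2) in casein diet replicate 2 than in replicate 1, with 25 of 32 members higher. It was 0.22 higher in high-fat diet replicate 2 than in replicate 1, with 23 of 32 members higher. Set against casein diet replicate 2, the median member was 0.13 higher in high-fat diet replicate 1, with 26 of 32 members higher. In high-fat diet replicate 2 it was 0.30 higher, with 30 of 32 members higher. The diet difference was larger than the gap between replicates of both diets for 15 of 32 members. The same count was not made over all tested genes, so it cannot be called high or low. Without casein diet replicate 1 the median of the members was 0.21, with 29 of 32 above 0, and without casein diet replicate 2 it was 0.46. Without high-fat diet replicate 1 it was 0.42 and without high-fat diet replicate 2 it was 0.30, with 27 of 32 above 0. With all arrays 9 members, or 28.1%, had an unadjusted limma p under 0.05 in either direction, against 4.97% of all genes. Refits without 1 array leave that diet a single sample, which is assumed to vary like the other diet, so their p-values rest on the spread of the other diet's 2 arrays. They gave 4 members (12.5%, against 3.91% of all genes) without casein diet replicate 1 and 14 (43.8%, against 14.2%) without casein diet replicate 2. They gave 5 (15.6%, against 3.38%) without high-fat diet replicate 1 and 1 (3.12%, against 4.5%) without high-fat diet replicate 2.

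Casein diet replicate 1 was also the array with the most signal from stomach, mesothelium and epithelium, and high-fat diet replicate 1 the array with the most from skeletal muscle. Summed over the 7 gastric genes on the array, intensities were 71995 and 9688 with casein, and 309.8 and 318 with high fat, and all 7 were lower on the high-fat diet. The 8 skeletal muscle genes summed to 747 and 969.5 with casein, and 22979 and 839 with high fat, and the 8 epithelial genes to 20628 and 10766 with casein, and 5002 and 9079 with high fat. The 34 endothelial members summed to 7428 and 9016 with casein, and 10499 and 11372 with high fat. The part of these other tissues in the endothelial differences was not tested. When both of those arrays were set aside, so that each diet kept its replicate 2 and no test could be made, 30 of 32 members were higher and their median difference was 0.30.

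Among the receptors of vascular growth factors, Kdr, the main signalling receptor for VEGF-A, had intensities of 210.1 and 292 with casein, and 439.5 and 398 with high fat. Both high-fat arrays were above both casein arrays, and the log2 difference was 0.76 (SE 0.20, 95% interval 0.19 to 1.32, limma adjusted p = 0.862). Flt1, a receptor that binds VEGF-A tightly and can act as a decoy, had intensities of 136 and 145 with casein, and 188 and 175 with high fat. Its difference of 0.37 (SE 0.10, 95% interval 0.079 to 0.66) was smaller than that of Kdr but of the same sign in all 4 of its probe sets, from 0.37 to 0.52. For both receptors high-fat diet replicate 1 was the highest array. Leaving out 1 array gave 0.52 to 0.99 for Kdr and 0.32 to 0.42 for Flt1.

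The angiopoietin receptor Tek had intensities of 93.9 and 140.2 with casein, and 145 and 193 with high fat, a difference of 0.55 (SE 0.27), or 0.26 without casein diet replicate 1. The lowest high-fat array and the highest casein array were close together. Tie1, an orphan relative that modulates Tek, had intensities of 46.7 and 54.5 with casein, and 47.3 and 56.3 with high fat and a difference of 0.032 (95% interval -0.40 to 0.46), with replicate 1 low and replicate 2 high on both diets. Eng, the endoglin co-receptor for BMP9 and TGF-beta, had 276 and 272 with casein, and 339 and 332 with high fat. The replicates of Eng were close on each diet (log2 difference 0.29, SE 0.09), and leaving out 1 array gave 0.28 to 0.31, the narrowest range of the 32 members. Robo4, an endothelial receptor of the Roundabout family linked to barrier stability, had 95.2 and 115 with casein, and 118 and 145 with high fat and differed by 0.33 (SE 0.17). The value was 0.18 when high-fat diet replicate 2 was left out.

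The G protein-coupled receptor Aplnr, which binds apelin and is found on veins and sprouting endothelium, had the largest difference of the members. Its intensities were 323 and 563 with casein, and 839 and 989 with high fat, a 2.14-fold ratio of geometric means (log2 difference 1.09, SE 0.32, 95% interval 0.20 to 1.99, limma adjusted p = 0.862). The 2 casein arrays were themselves far apart, and without casein diet replicate 1 the difference was 0.70, against 1.49 without casein diet replicate 2. A second, dimmer probe set of Aplnr gave 0.55. Calcrl, the receptor for adrenomedullin and calcitonin gene-related peptide, had 302 and 443 with casein, and 599 and 469.9 with high fat, with high-fat diet replicate 1 the highest. Its difference was 0.54 (SE 0.25), or 0.26 without casein diet replicate 1. Ramp2, the partner that makes Calcrl an adrenomedullin receptor, had 460.1 and 423 with casein, and 413 and 536 with high fat, so that the diets overlapped, and differed by 0.094 (SE 0.17). S1pr1, the sphingosine-1-phosphate receptor that tightens endothelial junctions and is also carried by lymphocytes, had 160.1 and 157 with casein, and 172 and 192 with high fat and differed by 0.20 (SE 0.11).

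Cdh5, the cadherin of endothelial junctions, had the smallest p of the members. Its intensities were 217 and 287 with casein, and 459 and 528 with high fat, a 1.97-fold ratio of geometric means, and the diets did not overlap (log2 difference 0.98, SE 0.18, 95% interval 0.46 to 1.504, unadjusted p = 0.00702, limma adjusted p = 0.857). Leaving out 1 array gave 0.78 to 1.18. A second probe set of Cdh5, below the filter at 12.5 to 17.9, gave 0.048. Pecam1, an adhesion molecule shared with platelets and leukocytes, had 115 and 134 with casein, and 136 and 160.3 with high fat, a smaller difference of 0.26 (SE 0.15). Esam, a junctional adhesion protein, had 303 and 399 with casein, and 469.5 and 504 with high fat and differed by 0.48 (SE 0.17), or by 0.29 without casein diet replicate 1. Icam2, a ligand for leukocyte integrins, had 177 and 187 with casein, and 185 and 222 with high fat, and the diets overlapped (difference 0.16, SE 0.13).

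Emcn, the sialomucin endomucin of veins and capillaries, had 189 and 265 with casein, and 347 and 356 with high fat. The high-fat arrays were nearly equal and both above the casein arrays (log2 difference 0.65, SE 0.20, 95% interval 0.089 to 1.22), and without casein diet replicate 1 the difference was 0.41. Clec14a, a C-type lectin of sprouting endothelium, had 93.9 and 132 with casein, and 151 and 187 with high fat, and its ligand Mmrn2, an endothelial matrix protein, had 323 and 454 with casein, and 479 and 509 with high fat. They differed by 0.59 (SE 0.23) and 0.37 (SE 0.20), and without casein diet replicate 1 by 0.35 and 0.12. Ptprb, the phosphatase that restrains Tek signalling, had 311 and 342 with casein, and 402 and 489 with high fat, which did not overlap (difference 0.44, SE 0.14, 95% interval 0.035 to 0.85). Plvap, which builds the diaphragms of fenestrae and caveolae, had 444 and 445 with casein, and 488 and 655 with high fat. Its difference of 0.35 (SE 0.18) was 0.13 without high-fat diet replicate 2, the highest array.

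Cd34 and Ecscr had the smallest differences of the 12 tested junction and surface glycoproteins, a group that leaves out the receptors above. Cd34, a sialomucin also carried by fibroblasts and blood progenitors, had 772 and 914 with casein, and 805 and 1027 with high fat, where replicate 2 exceeded replicate 1 on both diets and the difference was 0.11 (SE 0.18). Ecscr, a small endothelial membrane protein, had 259.8 and 246 with casein, and 254 and 274 with high fat (difference 0.064, SE 0.10). The arterial gap junction gene Gja5 was below the filter, with 12.5 and 12.3 with casein, and 14.97 and 13.1 with high fat, and was not tested.

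The transcription factors did not share 1 direction. Sox18, a SOX factor of vessel and lymphatic formation, had 204 and 301 with casein, and 305 and 343 with high fat, a difference of 0.38 (SE 0.23) that was 0.10 without casein diet replicate 1, which was well below the other 3 arrays. Sox7, its close relative, was the 1 member whose values were smaller in the high-fat group. Its intensities were 169.9 and 155 with casein, and 130.05 and 104 with high fat, without overlap (log2 difference -0.48, SE 0.15, 95% interval -0.92 to -0.045, limma adjusted p = 0.862), and leaving out 1 array gave -0.64 to -0.32. A second probe set of Sox7, below the filter, gave -0.037. Erg had 70.3 and 77.98 with casein, and 72.8 and 106 with high fat, of which only high-fat diet replicate 2 stood apart (difference 0.25, SE 0.22, and -0.025 without that array). Tal1, a factor of blood and endothelial precursors, had 60.5 and 67.7 with casein, and 71.3 and 85.7 with high fat and differed by 0.29 (SE 0.14).

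Rasip1, an effector needed for vessel lumen formation, had the second smallest p of the members. Its intensities were 37.4 and 40.4 with casein, and 53.2 and 49.9 with high fat (log2 difference 0.41, SE 0.10, 95% interval 0.11 to 0.70), and leaving out 1 array gave 0.35 to 0.46, although all its intensities were near the filter. Nos3, the endothelial nitric oxide synthase, had 72.2 and 97.5 with casein, and 117 and 107 with high fat, and Vwf, the clotting factor stored in endothelial cells and platelets, had 197 and 324 with casein, and 391 and 348 with high fat. In both genes casein diet replicate 1 was the low array. Their differences of 0.42 (SE 0.19) and 0.55 (SE 0.28) became 0.20 and 0.19 without it. Egfl7, a secreted protein of growing vessels, had 338 and 434 with casein, and 442 and 533 with high fat and differed by 0.34 (SE 0.19), and its 3 other probe sets gave 0.17 to 0.25.

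**Figure D2:**
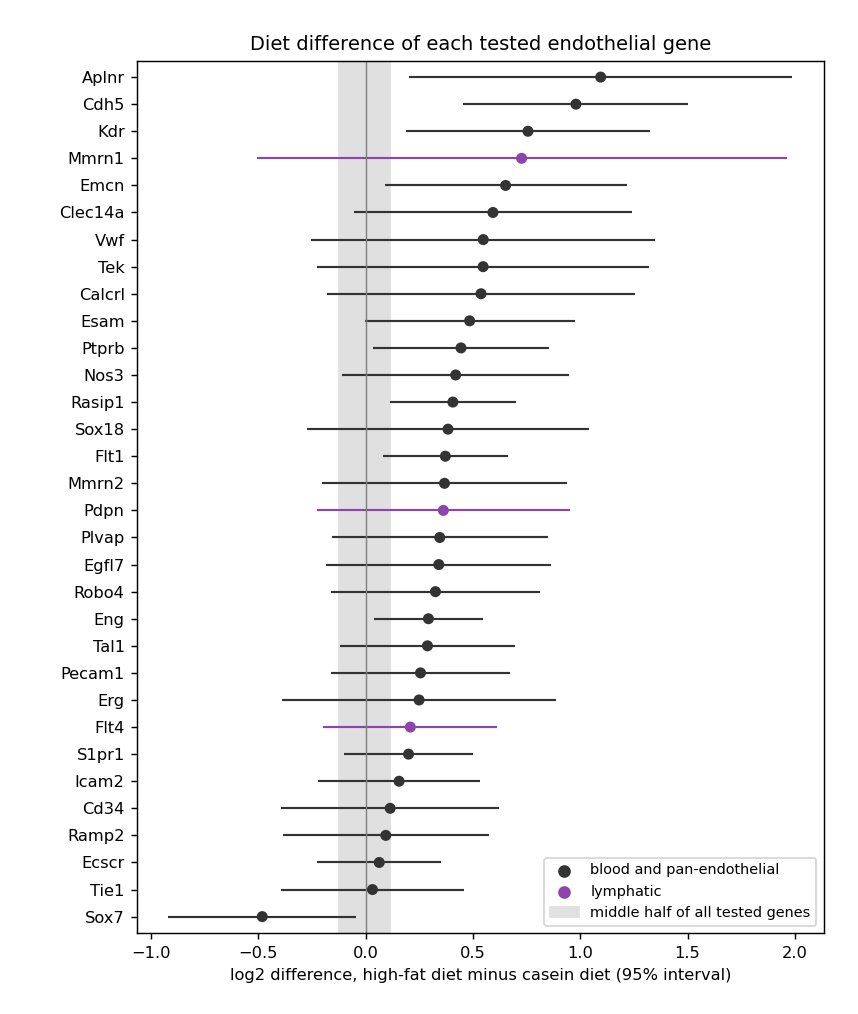
The log2 difference, high-fat diet minus casein diet (x axis), is drawn for each of the 32 tested genes with its 95% interval from limma before adjustment, lymphatic genes in purple; the grey band spans the 25th to 75th percentile of all tested genes, -0.13 to 0.11. The interval lies above 0 for 8 genes and below 0 for Sox7, and no gene passes after adjustment.

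Among the lymphatic members 1 of 4 was below the filter, against 1 of 30 among the others. Prox1, the transcription factor that sets lymphatic identity, was below the filter at 25.6 and 14.8 with casein, and 14.99 and 41.8 with high fat, with high-fat diet replicate 2 and casein diet replicate 1 above the other arrays, and was not tested. Its 2 dimmer probe sets gave -0.047 and -0.0395. Flt4, the receptor for VEGF-C and VEGF-D, had 102 and 93.9 with casein, and 102 and 125 with high fat, a difference of 0.21 (SE 0.14) that depended on high-fat diet replicate 2 (0.065 without it). Its lower high-fat array, at 102.1, was barely above the higher casein array, at 101.6. Mmrn1, a matrix protein of lymphatic endothelium and platelets, had 101 and 68.5 with casein, and 96.5 and 197 with high fat. The diets overlapped, high-fat diet replicate 2 alone stood high, and the difference was 0.73 (SE 0.44, 95% interval -0.51 to 1.96), or 0.21 without that array.

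Pdpn, podoplanin, marks lymphatic endothelium but also fibroblasts and mesothelium, and had 731 and 922 with casein, and 1209.6 and 921 with high fat. It was highest in high-fat diet replicate 1, unlike the other lymphatic members, and differed by 0.36 (SE 0.21), or by 0.17 without that array. The 3 tested lymphatic members had a median difference of 0.36, and 1 of 3 did not overlap. The 29 blood and pan-endothelial members had a median of 0.37, and 22 did not overlap. Both counts are in the higher direction, in which 16.6% of all tested genes did not overlap. Whether the 2 groups of genes differ was not tested. With the mean of all probe sets of a gene in place of the brightest, Mmrn1 was below the filter, Flt4 was at 0.082 and the lymphatic median was 0.22. Lyve1, a hyaluronan receptor of lymphatic endothelium and some macrophages, was outside the list and had 279 and 193 with casein, and 139 and 280.4 with high fat, which overlapped (difference -0.23, SE 0.42). Of 10 other lymphatic genes tested, 8 were higher and 2 lower, with a median of 0.21. Limma gave 0 past the adjusted threshold and 1, Stab1, higher at an unadjusted p under 0.05, where 2.24% of all tested genes were. Without casein diet replicate 1 the median of these 10 genes was 0.019.

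Of 23 further probe sets for 14 of the members, 19 had the sign of the brightest one. The 4 that did not, 2 of Prox1 and 1 each of Flt4 and Mmrn1, were all below the filter, and all 13 above it had the same sign. The other 20 members had 1 probe set. The disagreeing probe sets all belonged to lymphatic genes.

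Other genes of the vessel wall and its signals were taken from lists of related genes. With the high-fat diet 17 of 19 other endothelial genes tested were higher, where 48.6% of all genes were, and 2 were lower. Their median was 0.27, and 10 did not overlap in the higher direction, against 16.6% of all genes. Myct1, an endothelial target of ETS factors, had 117 and 123 with casein, and 167 and 179 with high fat (difference 0.53, SE 0.10), Notch4, an endothelial Notch receptor, differed by 0.51 (SE 0.14) and Fli1, an ETS factor, by 0.27 (SE 0.09). Pcdh12, an endothelial protocadherin, and Cldn5, a tight junction protein, differed by 0.60 and 0.33. The 2 lower genes, Mecom and Gimap6, differed by -0.20 (SE 0.36) and -0.19 (SE 0.21). Arhgap29 and Nrp1 were near 0, at 0.0026 (SE 0.11) and 0.017 (SE 0.13). Of the 19, limma gave 0 past the adjusted threshold and 4 higher at an unadjusted p under 0.05, where 2.24% of all genes were. Without casein diet replicate 1, 13 of the 19 were higher, and without high-fat diet replicate 2 the median was 0.17.

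Capillary genes had the largest median of the vascular lists, 0.71, with all 7 tested above 0. Of these, 3 did not overlap in the higher direction, against 16.6% of all genes. The median was the value of Gpihbp1, and without high-fat diet replicate 2 the list's median was 0.17. Cd36 and Lpl were near 0, at 0.042 (SE 0.57) and 0.10 (SE 0.42). Rgcc, a cell cycle regulator of capillary endothelium, had 158 and 174 with casein, and 299 and 275 with high fat (difference 0.79, SE 0.11). Fabp4, a fatty acid-binding protein shared by capillaries, adipocytes and macrophages, differed by 1.47 (SE 0.31), and Aqp1, a water channel, by 0.63 (SE 0.41). Gpihbp1, which holds lipoprotein lipase on capillaries, had 124 and 119.8 with casein, and 137 and 292 with high fat, with high-fat diet replicate 2 alone high. The 6 adipocyte genes on the array summed to 501 and 462 with casein, and 402 and 779 with high fat, also highest in that array.

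Arterial genes (5 of 7 higher, median 0.16) and venous or activated endothelial genes (3 of 6 higher, median 0.049) were divided. At an unadjusted limma p under 0.05, 1 arterial gene was higher, where 2.24% of all tested genes were. In the venous or activated list 1 gene was lower, where 2.73% of all were. Among the arterial genes, the connexin Gja4 had 77.05 and 88.7 with casein, and 106 and 127 with high fat (difference 0.49, SE 0.15). The netrin receptor Unc5b differed by 0.36, the Notch target Hey1 by 0.16 and the semaphorin Sema3g by 0.54 (SE 0.37). Sema3g was high in high-fat diet replicate 1 alone, at 211, and its diets overlapped. Dll4 differed by 0.077, and the 2 lower arterial genes were Efnb2 (-0.11) and Notch1 (-0.048, barely without overlap). The leukocyte adhesion gene Vcam1 had 1155 and 907 with casein, and 708 and 653 with high fat, lower on the high-fat diet without overlap (difference -0.59, SE 0.16), and the related Icam1 differed by -0.26 (SE 0.24). Selp, the P-selectin of endothelium and platelets, differed by 0.62 (SE 0.30) and Nr2f2, a factor of venous identity, by 0.48 (SE 0.27). None passed limma's adjusted threshold. Leaving out 1 array gave medians of 0.14 to 0.24 for the arterial genes and -0.058 to 0.21 for the venous or activated ones.

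The list of ligands of these receptors also held Sphk1, Sphk2 and Spns2, which are not ligands themselves. Of its 15 tested genes 10 were higher, with a median of 0.084 and 0 at an unadjusted limma p under 0.05. Vegfa, the ligand of Kdr and Flt1, had 180.1 and 157 with casein, and 164 and 161 with high fat (difference -0.049, SE 0.11). Vegfc, a ligand of Flt4, had 78.1 and 136 with casein, and 94.6 and 109.7 with high fat (difference -0.015, SE 0.31), and Vegfd, the other, differed by -0.24 (SE 0.12). The Flt1 ligand Pgf differed by 0.30 (SE 0.14). Angpt2, the vessel-loosening ligand of Tek, differed by 0.051 (SE 0.21) and Angpt1 by 0.19 (SE 0.10), while Spns2, the exporter of sphingosine-1-phosphate, differed by -0.37 (SE 0.19). Leaving out 1 array gave medians of 0.041 to 0.14 for all 15 genes of this list, with 8 to 12 of them higher.

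Several other cell types share some of the markers or surround vessels, and none of their genes passed limma's adjusted threshold. At an unadjusted limma p under 0.05, 2 of 10 mural and 3 of 5 mesothelial genes were lower, where 2.73% of all tested genes were. In the other direction, 1 of 6 platelet and 1 of 8 fibroblast genes were higher, where 2.24% of all were. Mural cell genes were divided 5 and 5 (median 0.027, falling between -0.28, with casein diet replicate 1 left out, and 0.26, with replicate 2 of that diet left out). Pdgfrb and Notch3 differed by 0.59 and 0.29, the contractile genes Acta2, Myh11 and Des by -0.41, -0.89 and -0.35, and the other pericyte genes Mcam, Cspg4, Kcnj8, Abcc9 and Rgs5 by -0.20, -0.029, 0.083, 0.21 and 0.77. Leukocyte genes were higher for 7 of 9 (median 0.052, sums 24283 and 24386 with casein, and 28028 and 22972 with high fat), among them Cd68 by 0.51 and Adgre1 by 0.27, while Cd3e differed by -0.29. Without high-fat diet replicate 1 only 2 of 9 were higher, with a median of -0.12. Of 10 platelet genes on the array 6 passed the filter, and 4 of these were higher (median 0.079, sums 845 and 849 with casein, and 1879 and 1378 with high fat). Pf4, also made by some macrophages, differed by 1.66 (SE 0.23), and Itga2b, Itgb3 and Clec1b differed by 0.088, 0.39 and -0.092. The platelet median was 0.031 to 0.13 with 1 array left out. Fibroblast genes were higher for 5 of 8 (median 0.056, sums 44971 and 49924 with casein, and 52500 and 45175 with high fat), with Pdgfra at 0.61 and Dcn at -0.11. Only 2 of 8 were higher without casein diet replicate 1 (median -0.048) or without high-fat diet replicate 1 (median -0.076). Mesothelial genes, of a cell type that also makes Pdpn, were lower for 4 of 5 (median -1.66, sums 6037 and 1705 with casein, and 737 and 1244 with high fat). Of these sums the keratin Krt19 alone gave 5236 and 1053 with casein, and 261 and 772 with high fat. The mesothelial median was -2.37 to -0.95 with 1 array left out. The part of these cell types in the endothelial differences was not tested.

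**Figure D3:**
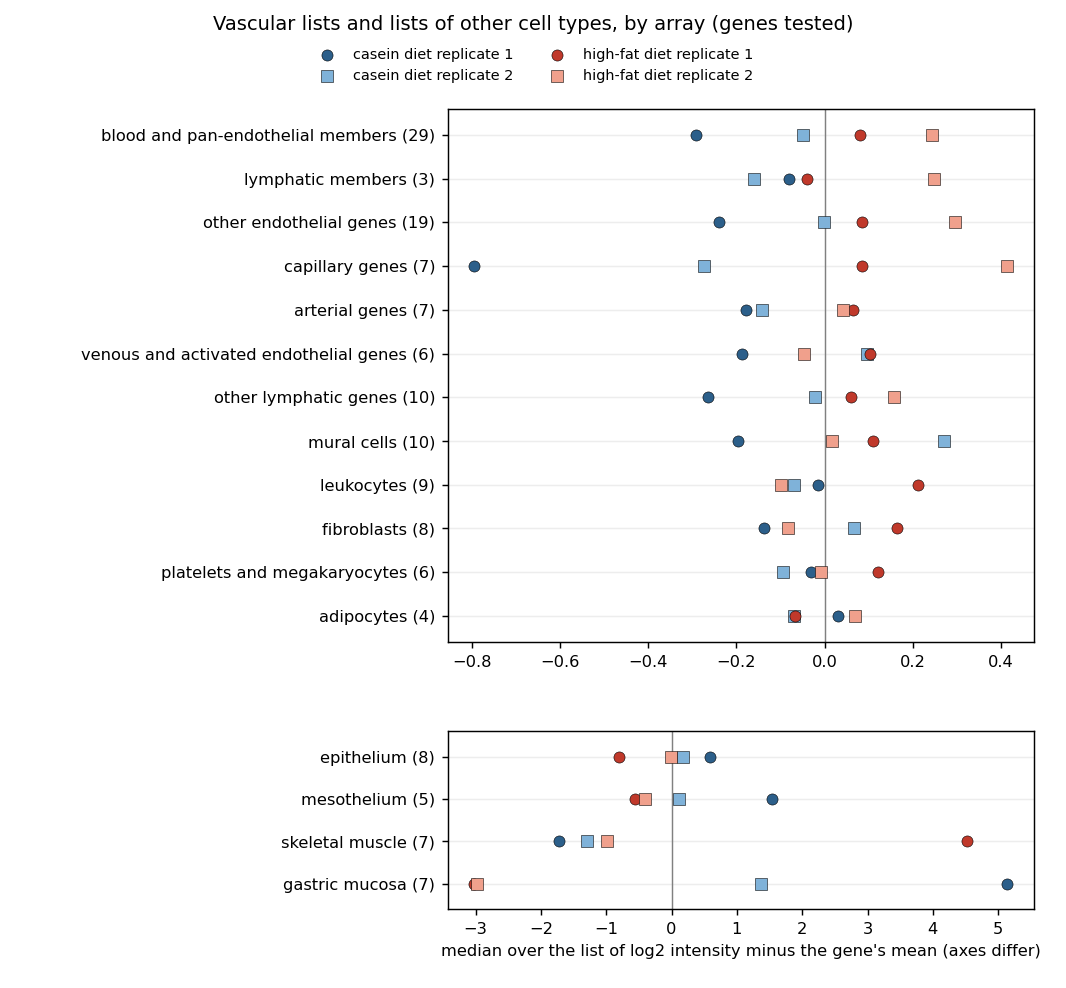
For each gene list (rows, number of tested genes in brackets) the plot gives the median over its genes of the log2 deviation from the gene's mean (x axis, with different scales in the upper and lower panels), 1 point per array. Blood and pan-endothelial members run from -0.29 in casein diet replicate 1 to 0.24 in high-fat diet replicate 2, whereas gastric genes stand at 5.14 in casein diet replicate 1 and skeletal muscle genes at 4.52 in high-fat diet replicate 1.

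The result for a single gene often depended on 1 array. Leaving out 1 array moved the difference by more than 1.5 times for 26 of 32 members. The 6 that stayed within that range were Cdh5, Kdr, Flt1, Eng, Ptprb and Rasip1. A positive difference can stay within it only if both high-fat arrays lie above both casein arrays. The lack of overlap in these genes is therefore not a separate result. The sign stayed the same for 28 members, and turned for Tie1, Cd34, Erg and Ramp2, each of whose 95% interval spanned 0.

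**Figure D4:**
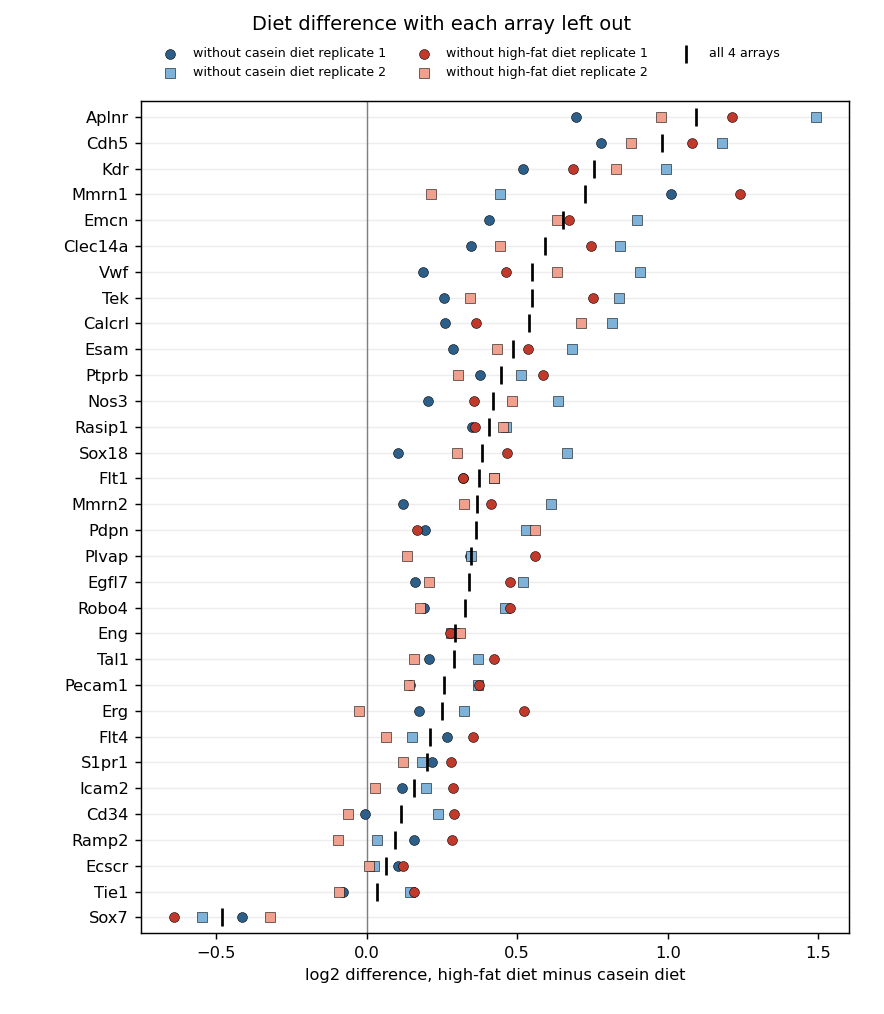
Each row gives the log2 difference, high-fat diet minus casein diet, of 1 tested gene with all 4 arrays (black bar) and with each array left out in turn (coloured points). Without casein diet replicate 1 Kdr lies at 0.52 and Vwf at 0.19, without high-fat diet replicate 2 Mmrn1 lies at 0.21, and Sox7 is below 0 throughout.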

How the data were processed

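Gene expression in 4 endometriotic lesion samples was measured on Affymetrix 3′ arrays. Per the labels' protocols, small-sample kit RNA was biotin-labelled with an in vitro transcription kit. Deposited values are linear probe set intensities that the authors had put on a common scale, judging by the near-equal quartiles of the 4 columns, and the scale was read from the values. GCOS and RMA are named in the submitters' processing notes, with versions and order not given in the sources used here. Such normalisation hides a shift shared by most genes. Detection calls and scan dates were not used here.

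Of 45101 probe sets, 64 are controls, and 34945 have 1 symbol in the platform annotation, 932 several and 9160 none. Only the first were used. All 34 members matched the mouse RefSeq gene table (GRCm38.p6), from whose promoter table the sequences come. Log2 was taken without a pseudocount. The probe set with the highest mean intensity stood for each gene, and genes below the 40th percentile of mean log2 intensity were dropped. The rest were tested in limma 3.58.1 (R 4.3.3; lmFit and eBayes, two-sided, Benjamini-Hochberg over all 12797 genes; 1.80 prior degrees of freedom). The fit was run on simulated data with planted changes larger than that of any member. That checks the code and not whether differences of the members' size can be found. With 2 arrays against 2 an exact permutation test cannot go below p = 0.333. The number of arrays limits the precision. SE is limma's moderated standard error.

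The rule for named genes took all members and, of each other list, up to 4 tested genes with the smallest p, plus Lyve1, Cldn5, Vegfa, Vegfc and Angpt2. The members and lists were chosen with earlier results of these data known. Alternatives were a block, other normalisations, filters, probe set choices, a pseudocount of 16, array weights and leaving out each array. The comparison of both replicates 2 alone was chosen after seeing the data. Lists are described by counts and medians, and Thy1 and Gata2 are each in 2 of them. Promoter windows were not found in that table for Cdh5, Pecam1, Esam, Icam2, Sox18, Sox7, Ptprb, Nos3, Vwf, Mmrn2, Ecscr, Plvap, Ramp2, Aplnr and S1pr1. Figures were drawn with matplotlib 3.10.9.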

Additional observations from a re-analysis of the deposited data

How the results depend on the processing

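With the replicate number as a block, 31 of 32 members were higher and the median log2 difference of all members was 0.36. Each number occurs once per diet, so a block cannot change these values and can change only the p-values. Limma with the block called 0 genes at an adjusted p of 0.05 (smallest 0.911). The labels do not say that a number marks a pair, and deviations of same-numbered arrays correlated at -0.02 across 12797 genes. Other filters, other probe set choices, quantile normalisation, centring on the median and a pseudocount of 16 were also tried. Medians were 0.34 to 0.37 for all members and for blood and pan-endothelial members. For lymphatic members they were 0.22 (mean of all probe sets) to 0.37. In each of these, 1 member was below 0 and 0 genes were past the threshold. Array weights returned the medians of the main fit unchanged, with 0 genes past the threshold. When 1 array was left out, the number of members higher ran from 27 to 31, the median of all members from 0.21 to 0.46, that of blood and pan-endothelial members from 0.21 to 0.46, that of lymphatic members from 0.21 to 0.44, and the number of genes past the threshold from 0 to 19. The 19 were found without casein diet replicate 2 and included no member, in a fit where casein diet replicate 1 stood alone and the 2 high-fat diet arrays supplied the spread. The differences of Tie1 (-0.0933 to 0.16), Cd34 (-0.0615 to 0.29), Erg (-0.0251 to 0.52) and Ramp2 (-0.0942 to 0.28) changed sign. With only replicate 2 of each diet, an alternative chosen after seeing the data and without a test, Pdpn was at -0.0019. The cause of these changes was not tested. Genes near the filter, such as Rasip1 and Tie1, are limited by their signal over background, which cannot be called without detection values.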

Other observations

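Sox17, of the same subgroup of SOX factors as Sox7 and Sox18, had intensities of 544 and 2594 with casein, and 1269.8 and 2391 with high fat. Replicate 2 exceeded replicate 1 on both diets and the diets overlapped (difference 0.55, SE 0.89, 95% interval -1.96 to 3.07).

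Car4, a carbonic anhydrase of capillary endothelium and gut epithelium, had intensities of 18.5 and 57.8 with casein, and 17.8 and 1255 with high fat. Only high-fat diet replicate 2 stood high, and Gpihbp1 and Mmrn1 were highest in the same array. Angpt4, a ligand of Tek, had 73.2 and 65.5 with casein, and 152 and 77.9 with high fat (difference 0.65, SE 0.36), with high-fat diet replicate 1 alone high. Stab1, a scavenger receptor of sinusoidal and lymphatic endothelium and of macrophages, had 268 and 284 with casein, and 515 and 409 with high fat (difference 0.73, SE 0.15), and Ccbe1, a secreted factor of lymphatic growth, differed by 1.05 (SE 0.49). Stab2, a relative of Stab1, differed by 0.34 (SE 0.14) and Fgl2, a secreted fibrinogen-like protein, by -0.61 (SE 0.26). The unadjusted limma p of Stab1 was 0.00977, and none of the 4 genes passed after adjustment. Car4, Sox17, Angpt4, Cd36, Lpl, Dll4, Efnb2, Notch1, Mecom, Gimap6, Arhgap29 and Nrp1 were chosen after their values were seen. So were the mural genes Mcam, Cspg4, Kcnj8, Abcc9, Rgs5 and Des.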
